A study of Mus musculus with 18 samples.

Results

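Multipotent progenitors (MPPs) of mouse bone marrow were compared between wild-type (WT) mice and mice from which *Trim33* had been deleted (KO). The comparison used all libraries of the MPP expression table, 3 WT and 3 KO, which are 6 of the 18 libraries of the series, and they were chosen by the population and genotype in their labels. They are called WT1, WT2, WT3, KO1, KO2 and KO3 here, after their labelled numbers. The mice were C57BL/6 animals of 6 to 8 weeks. Both groups carried floxed *Trim33* alleles (Trim33 fl/fl), and the KO mice also carried Cre-ERT2, a recombinase that tamoxifen activates. Knockout was induced with 2 mg of tamoxifen on each of 5 days, which removes exons 2 to 4, and the mice were examined 7 days later. WT mice were treated with tamoxifen as well. Cre-ERT2 is not restricted to blood cells in this cross, so that MPPs of KO mice also matured in a TRIM33-deficient animal. MPPs had been sorted as cells without lineage markers that carried Sca-1, CD117, CD34 and FLT3. How many mice stand behind a library is not given in the sources used here, and p-values measure the spread between these libraries.

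TRIM33, also called TIF1-gamma, is a nuclear protein of the tripartite motif family that binds SMAD proteins and modified histones and acts as a cofactor of transcription and as a ubiquitin ligase. It is known for its part in red cell formation and in the control of genes that the myeloid factor PU.1 regulates. MPPs lie just downstream of haematopoietic stem cells, and they transcribe low levels of genes of several blood lineages at once, a state called lineage priming. The factors GATA1, KLF1 and TAL1 drive the erythroid and megakaryocytic branch, whereas PU.1, C/EBP-alpha and IRF8 drive the granulocytic, monocytic and dendritic branches.

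Poly-A RNA was sequenced, and expression is given as FPKM, the fragments mapped to a gene for each kilobase of its transcript and each M of fragments in the library. From the spacing of the lowest values, each library was estimated to hold 20.01 to 21.07 M mapped reads. A gene was tested where its mean over the 6 libraries reached 0.5 FPKM, as it did for 12372 of 19710. Log2 fold changes (KO minus WT) are given with their SE on log2(FPKM + 1), a scale that understates the change of genes of low expression. A gene was called where the limma p, adjusted after Benjamini and Hochberg, did not exceed 0.05 and the log2 fold change was at least 1 in size.

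The libraries did not fall into 2 groups by genotype. On the first principal component, which held 68.0% of the variance of the tested genes, KO1 and KO2 lay at 37.9 and 47.9 while KO3 lay at -17.1, among the WT libraries at -31.3 to -16.0. KO3 stood alone on the second component, at -33.1. Over the tested genes, KO3 correlated with the WT libraries at 0.974 to 0.979 (Pearson's r of log values, across genes) and with the other KO libraries at 0.942 and 0.955, whereas KO1 and KO2 correlated with each other at 0.989. Values are therefore given library by library, and most counts are repeated without KO3.

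**Figure D1:**
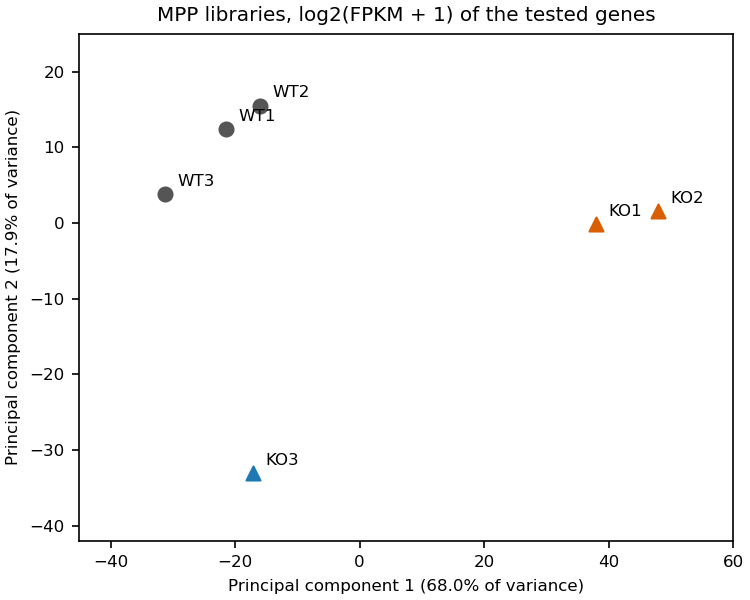
The plot places the 6 MPP libraries on the first and second principal components of log2(FPKM + 1) over the 12372 tested genes, with WT libraries as circles and KO libraries as triangles. KO1 and KO2 lie at 37.9 and 47.9 on the first component, and KO3 lies at -17.1 with the WT libraries there and at -33.1 on the second.

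*Trim33* itself (Entrez 94093, chromosome 3 of GRCm38, 103279293 to 103358770) was at 10.4, 10.1 and 8.78 FPKM in WT1 to WT3 and at 9.71, 11.7 and 4.80 FPKM in KO1 to KO3. KO1 and KO2 were not below the WT libraries, and only KO3 was lower. The log2 fold change was -0.22 ± 0.289 (limma adjusted p = 0.63), and it was 0.12 without KO3 (adjusted p = 0.421). The gene-level value counts reads from all exons, most of which lie outside exons 2 to 4, so it does not check the deletion. Of the other TIF1 proteins, *Trim24* was at 6.53 to 7.78 FPKM in WT and 7.45 to 8.61 in KO libraries, and *Trim28* was at 240.02 to 252 and 241 to 274.

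The sorted identity was visible in every library. *Cd34* was at 451, 441 and 497 FPKM in WT libraries and at 393, 347 and 453 in KO libraries, and *Flt3*, the receptor of the cytokine FLT3 ligand, was at 264, 265 and 272 against 225, 225 and 295. For both genes the groups overlapped. *Kit*, which encodes CD117, was at 71.6, 74.8 and 71.7 FPKM in WT and at 29.9, 34.7 and 49.9 in KO libraries, without overlap (log2 fold change -0.94 ± 0.181, limma adjusted p = 0.0434), just under the minimum fold change, and it was called without KO3 (-1.15). *Ly6a*, which encodes Sca-1, was at 59.3, 60.2 and 76.4 FPKM in WT and at 39.3, 33.9 and 43.1 in KO libraries (-0.73 ± 0.139, adjusted p = 0.0425). The 10 lineage genes of the gate summed to between 50.2 and 51.5 FPKM in WT and between 20.2 and 31.4 in KO libraries. Among them *Cd3e* and *Cd8a* were at 0.41 FPKM or less in each library, *Ly6g* was called lower, and *Itgam*, which encodes CD11b, was at 23.2, 23.8 and 21.2 FPKM against 11.4, 10.4 and 11.1. The part of such lineage transcripts in the differences described next was not tested.

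Sex-linked genes differed between libraries of the same genotype. Y-linked *Eif2s3y* was at 12.9, 16.2 and 12.7 FPKM in WT1 to WT3 and at 12.2, 1.03 and 0.00 in KO1 to KO3. *Xist*, transcribed from the inactive X chromosome, was at 22.6, 19.5 and 23.0 FPKM in WT and at 13, 53.9 and 60.5 in KO libraries. All WT libraries and KO1 thus held both kinds of transcript, while KO2 and KO3 held almost only *Xist*. Y-linked *Kdm5d* (log2 fold change -1.55, adjusted p = 0.0397) and *Uty* (-1.15, adjusted p = 0.0497) were among the genes called lower by limma. For these genes sex and genotype cannot be told apart. Sex composition differed in part with genotype for every gene compared, and its share in the other differences was not tested.

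Most genes that passed the test were lower in KO MPPs. limma called 163 genes lower, 1.32% of those tested, and 20 genes higher, 0.162%. Over all tested genes the log2 fold change had a median of -0.11, and of -0.01 when libraries were scaled by median ratios, which left 119 genes lower and 22 higher. All 183 called genes had values that did not overlap between the genotypes. Without any test, all 3 KO libraries lay below all 3 WT libraries for 23.3% of the tested genes and above them for 6.98%. A fit blocked on the library number called 163 genes lower (1.32%) and 25 higher (0.202%), and 173 genes were called in both fits. Same-numbered pairs gave a like picture: 91 genes were lower by at least 1 on the log2 scale in each of the 3 pairs, and 87 of them were called, while 19 were higher by as much in each pair, of which 17 were called. Fits without WT1, WT2 or WT3 called 51, 53 and 56 genes lower and 12, 13 and 12 higher. Without KO3 the counts were much larger, 548 lower (4.43%) and 366 higher (2.96%). With median ratio scaling as well they were 326 lower (2.63%) and 527 higher (4.26%), so that without KO3 the balance of lower and higher genes turned with the scaling.

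Genes of late red cell development fell, and globin genes had the largest decreases of single genes. Of 22 tested members of a late erythroid list, 14 were called lower and none higher, against 1.32% of all tested genes. The list's median log2 fold change was -1.29 against -0.11 for all tested genes. Every member had a negative estimate. In 21 of the 22 no KO library reached the WT range, against 23.3% of all tested genes with all KO below all WT libraries. *Hba-a1*, which encodes an alpha chain of haemoglobin, was at 162, 152 and 139 FPKM in WT libraries and at 0.36, 0.29 and 4.06 in KO libraries (log2 fold change -6.19 ± 0.509, limma adjusted p = 0.00294). *Hbb-bs*, a beta globin gene, was at 102, 111 and 93.2 FPKM against 0.00, 0.00 and 2.34 (-6.10 ± 0.463, adjusted p = 0.00253). *Hba-a2* was at 43.8, 38.0 and 49.3 FPKM against 0.00, 0.27 and 0.74. The loss was thus near complete in KO1 and KO2, and a trace was left in KO3. The second beta globin gene moved less, with *Hbb-bt* at 63.1, 42.9 and 60.1 FPKM in WT and 31.4, 46.4 and 49.1 in KO libraries, where the groups overlapped. Globin genes share sequence. Of the 50-base stretches in their transcripts, the length of a read, 13.1% (*Hba-a2*) to 41.7% (*Hbb-bt*) occurred in no other annotated transcript, so the split of reads between gene copies is uncertain.

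The other called members span the red cell programme. *Ahsp*, the chaperone of alpha globin, was at 11.8, 12.2 and 10.9 FPKM in WT and at 0.00, 0.11 and 0.97 in KO libraries (-3.28 ± 0.260, limma adjusted p = 0.00263). *Car1*, a carbonic anhydrase, was at 14.3, 15.3 and 18.4 FPKM against 0.91, 0.70 and 2.17. *Slc4a1*, the band 3 anion exchanger of the red cell membrane, was at 4.94, 4.64 and 3.74 FPKM against 0.00, 0.01 and 0.20. *Rhd*, *Aqp1*, *Cldn13*, *Ermap* and *Tspo2*, which encode membrane proteins, and *Alas2* and *Blvrb* of haem metabolism were also called lower. The summed level of the 28 listed genes was 628 to 657 FPKM in WT and 173 to 235 in KO libraries. In bulk RNA, fewer cells of a kind and less RNA per cell cannot be told apart. The count was 15 without KO3, against 4.43% of all tested genes, and 14 with the library block.

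Factors of the erythroid and megakaryocytic branch were lower as well. Of 14 tested members, 4 were called lower, against 1.32% of all tested genes, and the list's median log2 fold change was -0.78. *Klf1*, an activator of globin genes, was at 3.67, 3.46 and 3.90 FPKM in WT and 0.13, 0.20 and 0.43 in KO libraries (-1.91 ± 0.130, limma adjusted p = 0.00182). *Gata1*, the founding factor of that branch, was at 2.07, 2.44 and 2.43 FPKM against 0.31, 0.30 and 0.56 (-1.26 ± 0.125, adjusted p = 0.00617). *Tal1*, its partner, was at 16.3, 16.2 and 17.0 FPKM against 6.18, 4.51 and 9.06. *Gata2*, which stem cells use, was at 33.6, 33.9 and 30.6 FPKM against 30.7, 28.2 and 17.9, and was not called (-0.37, adjusted p = 0.283). *Gfi1b* showed the split between KO libraries, at 2.45 and 2.81 FPKM in KO1 and KO2 and 21.9 in KO3, against 9.29 to 10.6 in WT libraries. Without KO3, 8 members were called lower, against 4.43% of all tested genes, *Gfi1b*, *Nfe2*, *Lyl1* and *Cbfa2t3* being added. Of 10 tested platelet genes 2 were called lower, against 1.32% of all tested genes. *Itga2b* was among them and was not called without KO3 (log2 fold change -0.98).

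Some of the called erythroid genes hold the letters of a GATA site close to their start. The motif GATAAG was searched on both strands in the 300 bases that RefSeq (GRCm38.p6) gives around a start site, 250 before and 50 after it. Of 18 called genes of the erythroid and GATA lists, 12 had such a sequence and 5 held the motif, *Hba-a1*, *Hba-a2*, *Hbb-bs*, *Klf1* and *Rhd*. The stretch upstream of *Hba-a1* (chr11:32283422-32283721, plus strand), of *Hbb-bs* (chr7:103827879-103828178, minus strand) and of *Klf1* (chr8:84901732-84902031, plus strand) is shown, as examples of a lost alpha globin, a lost beta globin and a lost factor, with the motif or its reverse complement in capitals. Its first base lies 182, 209 and 81 bases before the start site.
Hba-a1: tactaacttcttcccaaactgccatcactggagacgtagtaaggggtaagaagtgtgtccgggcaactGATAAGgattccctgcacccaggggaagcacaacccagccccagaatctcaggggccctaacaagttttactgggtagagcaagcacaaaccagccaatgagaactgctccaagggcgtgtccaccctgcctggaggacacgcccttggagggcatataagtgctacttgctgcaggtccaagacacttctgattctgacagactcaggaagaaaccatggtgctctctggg
Hbb-bs: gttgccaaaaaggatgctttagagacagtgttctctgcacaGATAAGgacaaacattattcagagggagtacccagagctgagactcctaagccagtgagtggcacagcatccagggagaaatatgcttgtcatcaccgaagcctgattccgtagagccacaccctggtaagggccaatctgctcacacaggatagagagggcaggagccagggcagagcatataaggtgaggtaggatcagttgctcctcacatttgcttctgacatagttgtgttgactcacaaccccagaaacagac
Klf1: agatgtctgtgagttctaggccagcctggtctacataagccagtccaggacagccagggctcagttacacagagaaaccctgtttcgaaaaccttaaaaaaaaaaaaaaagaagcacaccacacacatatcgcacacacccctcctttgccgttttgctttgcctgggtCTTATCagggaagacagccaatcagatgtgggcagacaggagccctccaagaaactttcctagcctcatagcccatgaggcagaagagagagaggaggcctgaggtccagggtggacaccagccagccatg
Over all 9744 tested genes with a RefSeq sequence, 6.17% held GATAAG, and among the 125 genes called lower that had one 10.4% did, 13 genes. The share was 21.4% of the genes called higher, 3 of 14, and without KO3 it was 7.23% of the lower and 6.01% of the higher genes. A match describes these letters only and is not evidence of binding.

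Of 24 tested monocyte and macrophage genes 12 were called lower, against 1.32% of all tested genes, with a median log2 fold change of -1.22, and the count was 14 without KO3. In 21 of the 24 all KO libraries lay below all WT libraries, against 23.3% of all tested genes. In 2 members KO1 and KO2 lay above all WT libraries and KO3 below them, beside 1026 of all 12372 tested genes. *Fn1*, fibronectin, was at 9.96, 9.47 and 6.00 FPKM in WT and at 0.18, 0.24 and 0.20 in KO libraries (-2.95 ± 0.191, limma adjusted p = 0.00182). *F13a1*, a coagulation factor subunit made by monocytes, was at 14.2, 14.0 and 11.5 FPKM against 2.2, 2.24 and 2.48 (-2.10 ± 0.131, adjusted p = 0.00182). *Csf1r*, the receptor of macrophage colony-stimulating factor, was at 15.6, 15.5 and 13.2 FPKM against 4.54, 4.20 and 3.94 (-1.59 ± 0.124, adjusted p = 0.00253). The KO libraries had much the same *Csf1r* level and did not approach the WT range. *Lgals3*, *Ms4a6c*, *Ccr2*, *Lyz2*, *Lyz1*, *Cybb* and the complement genes *C1qa*, *C1qb* and *C1qc* were the other members called. *Mpeg1* was not called with KO3, at 34.5, 33.5 and 34.1 FPKM against 4.67, 4.34 and 16.3. Of 22 tested chemokines and their receptors, *Ccl2*, *Ccr2*, *Ccl3* and *Ccl6* were called lower, against 1.32% of all tested genes. Without KO3 *Cx3cr1* was added and 4 were called higher, *Cxcl10*, *Cxcr4* and *Ccl5* among them. In that fit 4.43% of all tested genes were lower and 2.96% higher. *Ccl3* was at 437 to 457 FPKM in WT and 166 to 194 in KO libraries (-1.33 ± 0.0831, adjusted p = 0.00182). Outside the lists, *Apoe*, apolipoprotein E, which macrophages secrete, was at 34.3, 27.8 and 34.6 FPKM against 6.79, 8.64 and 5.04 (-2.11 ± 0.193, adjusted p = 0.00449).

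Neutrophil granule genes were lower, though genes of the first granules differed among themselves in overlap. Of 21 tested members 9 were called lower, against 1.32% of all tested genes, and the median was -1.23. The count was 12 without KO3, against 4.43%, and it was 5 with median ratio scaling and 8 with the library block. *Ltf*, lactoferrin, was at 127, 126 and 129.8 FPKM in WT and at 57.2, 27.3 and 49.6 in KO libraries (-1.56 ± 0.257, limma adjusted p = 0.0288). *Retnlg* was at 69.3, 75.1 and 82.8 FPKM against 31.7, 16.3 and 24.3. *Ly6g*, the neutrophil surface antigen of the lineage gate, was at 9.45, 9.27 and 10.6 FPKM against 2.62, 1.58 and 2.90 (-1.70 ± 0.183, adjusted p = 0.00776). *Camp*, *Ngp*, *Lcn2* and *Mmp9*, products of the later granules, with *Chil3* and *Cybb* complete the called members. *Elane*, the elastase of the primary granules, was at 175, 204 and 162 FPKM against 247, 187 and 117, and *Prtn3*, its neighbour in function, at 323, 333 and 337 against 383, 298 and 225. These 2 genes, picked after their values were seen, overlapped between the genotypes. *Mpo*, a further primary granule gene named after its values were seen, did not overlap. It was at 718, 713 and 592 FPKM in WT and at 514, 412 and 333 in KO libraries (-0.70 ± 0.168, limma adjusted p = 0.0743). *Cebpa*, the factor at the entry to the granulocyte branch, was at 49.6 to 50.2 FPKM in WT and 33.6 to 34.7 in KO libraries (-0.53 ± 0.0771, adjusted p = 0.0204), below the minimum fold change.

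Some basophil genes and some lymphoid genes were lower too. Of 12 tested basophil and mast cell genes, the proteases *Prss34*, *Mcpt8* and *Cpa3* and the IgE receptor subunit *Ms4a2* were called lower, 4 genes against 1.32% of all tested genes. *Prss34* was at 121, 128 and 113 FPKM in WT and at 57.8, 36.9 and 39.6 in KO libraries (-1.44 ± 0.172, limma adjusted p = 0.0118). Without KO3 *Gzmb* of this list was called higher. The whole list summed to 962, 1030 and 977 FPKM in WT1 to WT3 and to 1220, 1040 and 677 in KO1 to KO3. Its total was thus not lower in KO1 and KO2. Of 18 tested B cell genes, *Jchain*, *Igll1* and *Vpreb3* were called lower, against 1.32% of all tested genes. Without KO3 7 were, against 4.43%. The summed level of the B cell list was 566, 546 and 648 FPKM in WT1 to WT3 and 601, 477 and 1130 in KO1 to KO3. Only KO2 was thus below the WT range in this total, and KO3 was above it. *Jchain*, the joining chain of secreted antibodies, was at 3.45, 5.67 and 4.95 FPKM against 0.53, 0.12 and 0.55 (-2.02 ± 0.206, adjusted p = 0.00667), and *Igll1*, a part of the pre-B cell receptor, at 7.34, 6.92 and 7.23 against 2.59, 0.79 and 1.24. *Dntt*, the terminal transferase of early lymphoid cells, set KO3 apart, at 551 and 444 FPKM in KO1 and KO2, 1053 in KO3 and 453 to 549 in WT libraries. *Il7r* did likewise, at 1.89, 1.97 and 8.41 FPKM in KO1 to KO3 against 5.27 to 5.87 in WT. No T cell gene of 11 tested and no lymphoid priming factor of 14 was called. Without KO3 *Cd4* was lower and *Foxo1* higher, beside 4.43% and 2.96% of all tested genes.

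Interferon-stimulated genes were lower by a moderate amount across the list. Of 48 tested members 6 were called lower, *Ifi44*, *Iigp1*, *Slfn5*, *Trim30a*, *Zbp1* and *Oas2*, against 1.32% of all tested genes, and none higher. The median log2 fold change was -0.78, and in 40 of the 48 every KO library lay below every WT library, against 23.3% of all tested genes. *Ifi44* was at 10.2, 8.79 and 10.2 FPKM in WT and at 2.48, 1.99 and 4.10 in KO libraries (-1.51 ± 0.213, limma adjusted p = 0.0190). *Slfn5*, a member of the Schlafen family, was at 3.36, 3.56 and 3.23 FPKM against 0.60, 0.67 and 0.91 (-1.35 ± 0.120, adjusted p = 0.00417). *Iigp1*, an immunity-related GTPase, was at 5.44, 5.69 and 7.39 FPKM against 0.86, 1.83 and 2.72. The regulator *Irf7* (26.7 to 33.0 FPKM in WT, 13.7 to 16.9 in KO) did not reach the minimum fold change. The count was 8 with the library block, which added *Usp18*, and 17 without KO3, where 4.43% of all tested genes were lower. The median difference from the WT mean was -0.89 in KO1, -0.83 in KO2 and -0.61 in KO3. *Isg15* did not follow, at 15.2, 15.01 and 18.0 FPKM against 15.7, 19.97 and 7.88.

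The core letters of a site for interferon regulatory factors, GAAA followed by any 2 bases and GAAA again, were searched in the same way. They occurred near the start of 11.2% of the genes called lower, 14 of 125 with a sequence, and of 3.94% of all tested genes with one. For the 548 genes called lower without KO3 the share was 10.6%, and for the 366 called higher it was 3.89%. The promoter of *Slfn5* (chr11:82951852-82952151, plus strand) is printed as an example with the match in capitals.
Slfn5: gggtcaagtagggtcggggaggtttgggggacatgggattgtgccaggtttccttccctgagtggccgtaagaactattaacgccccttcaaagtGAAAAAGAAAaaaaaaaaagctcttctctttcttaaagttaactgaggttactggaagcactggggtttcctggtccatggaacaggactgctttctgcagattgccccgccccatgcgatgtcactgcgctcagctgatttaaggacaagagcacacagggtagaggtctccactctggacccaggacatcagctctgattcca
The match lies 155 bases before the start site. For the letters GAGGAAGT, which PU.1 binds, the share was 4.80% of the genes called lower against 4.05% of all tested genes, and for TGAGTCA, which AP-1 binds, it was 5.6% against 4.43%. Of the 14 genes called higher that had a sequence, 1 held GAGGAAGT, 2 held TGAGTCA and 0 held the interferon factor letters. Without KO3, GAGGAAGT was in 6.27% of the lower and 4.59% of the higher genes. TGAGTCA was in 5.54% and 6.36%.

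Immediate early genes, which growth factors and stress switch on within minutes, divided into a part that fell and a part that did not. Of 32 tested members 8 were called lower, *Egr1*, *Dusp1*, *Btg2*, *Jun*, *Zfp36*, *Dusp2*, *Egr2* and *Klf6*, against 1.32% of all tested genes, none was called higher, and the median was -0.62. Without KO3 7 were lower and 6 higher, against 4.43% and 2.96% of all tested genes. The 6 were *Nr4a3*, *Fosl2*, *Nr4a2*, *Dusp4*, *Fosl1* and *Nr4a1*. KO1 and KO2 lay above all WT libraries for 12 of the 32 and below them for 18. The shares over all tested genes were 21.6% and 50.0%. *Egr1*, a zinc finger factor, was at 915, 818 and 689 FPKM in WT and at 100.5, 86.1 and 108 in KO libraries (-3.02 ± 0.132, limma adjusted p = 0.000568). *Btg2*, an antiproliferative gene that is also a p53 target, was at 221, 211 and 198 FPKM against 58.1, 50.1 and 43.3 (-2.04 ± 0.120, adjusted p = 0.00182). KO3 matched KO1 and KO2 for both of these genes. *Dusp1*, a phosphatase of MAP kinases, was at 883, 844 and 907 FPKM in WT libraries and at 142, 91.0 and 368 in KO libraries (-2.38 ± 0.462, adjusted p = 0.0454), and *Jun* at 1740, 1605 and 1519 against 422, 347 and 620. For these genes KO3 lay between KO1 and KO2 on the one side and the WT libraries on the other. *Fos* did so more clearly, at 2590, 2468 and 2721 FPKM against 344, 207 and 1188, and was called only when KO3 was left out. Over the list, however, the median difference from the WT mean was -0.49 in KO1, -0.59 in KO2 and -1.23 in KO3. KO3 was the lowest of the 6 libraries for 20 of the 32, beside 1995 of all 12372 tested genes. It lay below all WT libraries for 9 of the 12 in which KO1 and KO2 lay above them. Over all tested genes it did so for 1026 of 2667. The summed level of the list was 14600 to 16300 FPKM in WT and 6590 to 8220 in KO libraries.

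Of 26 tested regulators of stem cells and MPPs, *Fgd5* and *Esam*, which mark stem cells and endothelium, were called lower, beside 1.32% of all tested genes, and 24 had a negative estimate. Neither was called with quantile normalization. *Fgd5* was at 2.43, 2.54 and 1.76 FPKM in WT and at 0.59, 0.35 and 0.45 in KO libraries (-1.14 ± 0.141, limma adjusted p = 0.0131). *Hlf*, a stem cell factor picked after its values were seen, was at 41.1 to 41.9 FPKM against 21.1, 24.0 and 30.1 (-0.72, adjusted p = 0.0432).

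**Figure D2:**
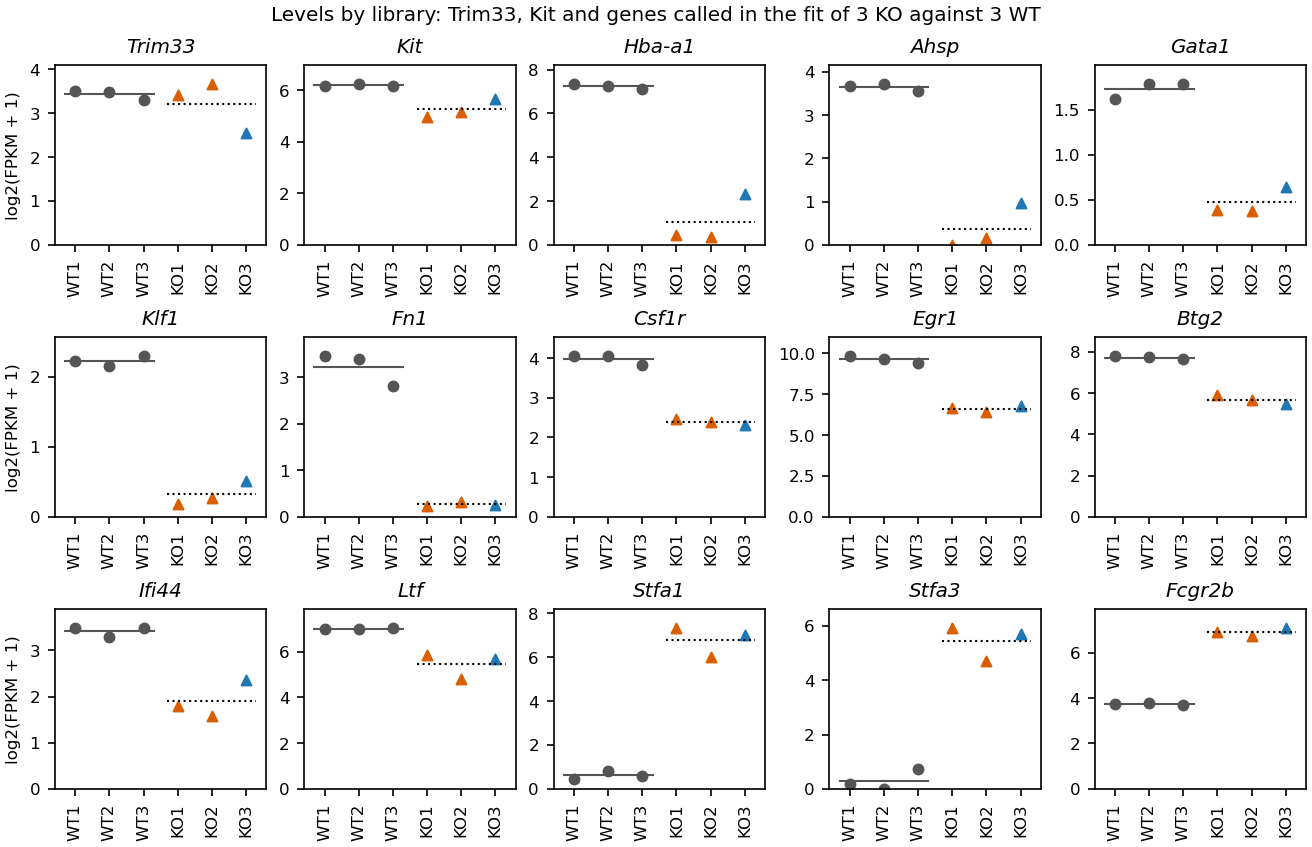
Each panel shows log2(FPKM + 1) of a gene in the 6 MPP libraries, as circles for WT, orange triangles for KO1 and KO2 and a blue triangle for KO3, with a solid line at the WT mean and a dotted line at the KO mean. *Trim33* and *Kit* were not called, and in the other panels all KO libraries lie on the same side of all WT libraries, with *Stfa1*, *Stfa3* and *Fcgr2b* above and the rest below.

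The stefin A genes rose most. They encode small inhibitors of cysteine proteases of the cathepsin family and form a cluster of near copies on chromosome 16. Of 9 tested members 8 were called higher and none lower, against 0.162% of all tested genes, and the median log2 fold change was 4.69. Their summed level was 1.74, 3.47 and 4.46 FPKM in WT1 to WT3 and 519, 210 and 454 FPKM in KO1 to KO3. For some tested members the coding start is printed as 60 bases from the start codon (GENCODE vM21, GRCm38). Capitals mark a base that differs from *Stfa1*. Only members under a set number of differences from *Stfa1* were kept, so the likeness shown follows in part from that choice. *Stfa2*, *Stfa2l1*, *Stfa3* and *BC117090* are not printed. *Stfa1* lies on the plus strand of chromosome 16 from 36276951 to 36285373.
Stfa1: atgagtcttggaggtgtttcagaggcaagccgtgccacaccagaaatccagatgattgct
BC100530: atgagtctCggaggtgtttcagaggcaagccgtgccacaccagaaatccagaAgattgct
Gm5416: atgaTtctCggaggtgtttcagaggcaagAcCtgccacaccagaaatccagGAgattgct
Gm5483: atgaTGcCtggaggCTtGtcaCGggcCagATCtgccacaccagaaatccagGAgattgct
2010005H15Rik: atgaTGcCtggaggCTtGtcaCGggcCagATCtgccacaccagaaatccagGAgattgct
*BC100530* differed from *Stfa1* at 2 of the 60 positions and *Gm5416* at 6, and *Gm5483* and *2010005H15Rik*, which both differed at 14, had the same letters.

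*Stfa1* was at 0.38, 0.78 and 0.51 FPKM in WT and at 160.3, 64.5 and 130.5 in KO libraries (6.17 ± 0.330, limma adjusted p = 0.00125). *BC100530* was at 0.00, 0.34 and 0.91 FPKM against 105.7, 40.9 and 82.7, and *Gm5483* at 0.20, 0.83 and 0.87 against 69.8, 28.6 and 77.9. Reads of 50 bases can be shared between these copies, since 73.1% of such stretches of *Stfa1*, 66.5% of *BC100530* and 64.4% of *Gm5483* were found in no other transcript. *Stfa3* and *Gm5416* had only stretches of their own, and they rose too. *Stfa3* was at 0.13, 0.00 and 0.64 FPKM in WT and at 59.7, 25.1 and 50.9 in KO libraries (5.15 ± 0.350, adjusted p = 0.00182). *Gm5416* was listed at 0 in all WT libraries and at 4.84, 2.35 and 3.26 FPKM in KO libraries. *Stfa2* (47.3, 19.6 and 42.7 FPKM in KO libraries), *Stfa2l1* (59.2, 24.8 and 56.5) and *2010005H15Rik* (9.45, 3.97 and 8.38) complete the called set, with 0.89 FPKM or less in each WT library. KO2 had the lowest level of each of these members among the KO libraries, and KO3 was near KO1, so that the split of KO3 from the others did not extend to them. *BC117090*, the tested member that was not called, was listed at 0 in all WT libraries and at 2.79, 0.43 and 1.07 FPKM in KO libraries (adjusted p = 0.108), and the listed *Gm4758* and *Csta1* were not tested. The median pair difference of the list was 5.59, 3.95 and 4.98 in pairs 1 to 3.

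*Fcgr2b* (chromosome 1 of GRCm38, 170960558 to 170976071), the inhibitory receptor for IgG, had the smallest adjusted p of the genes that rose. It was at 12.4, 12.7 and 11.96 FPKM in WT and at 121, 106 and 135 in KO libraries (3.18 ± 0.111, limma adjusted p = 0.000366), and KO3 had the highest value. *Fcgrt*, the neonatal Fc receptor, moved the other way, at 7.65, 6.75 and 7.47 FPKM against 2.96, 2.40 and 1.94 (-1.28 ± 0.149, adjusted p = 0.0104). These were the only called members of 8 tested Fc receptor genes, beside 1.32% of all tested genes called lower and 0.162% higher.

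Further genes with the largest rises were low in WT libraries. *Sva*, a gene of seminal vesicle secretion, was listed at 0 in all WT libraries and at 4.83, 4.60 and 3.21 FPKM in KO libraries (2.37 ± 0.150, limma adjusted p = 0.00182). *Camk2b*, a kinase subunit of neurons, was at 0.74, 0.89 and 0.83 FPKM against 7.03, 4.53 and 6.44 (1.93 ± 0.167, adjusted p = 0.00369). *Chga*, chromogranin A of neuroendocrine granules, was at 2.33, 1.56 and 2.08 FPKM against 7.63, 5.81 and 7.65. *Etv4*, an ETS factor, was at 0.04, 0.09 and 0.17 FPKM against 1.5, 1.98 and 2.15, and *Grap*, an adaptor of receptor signalling, at 1.60, 1.73 and 2.15 against 5.6, 10.5 and 10.04. KO3 lay with KO1 and KO2 in all of these genes. *Snord91a* rose and *Mir6999* fell as well, and their FPKM rest on very short annotated genes.

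Whether a KO library that a fit had not used moved with the other KO libraries was described for each KO library in turn. Genes were called with the 3 WT and 2 KO libraries, and the held-out library was placed on a scale on which the WT mean is 0 and the mean of the other KO libraries is 1. With KO1 held out, 124 genes were called lower (1.0%) and 20 higher (0.162%), and KO1 lay at a median of 0.804 and 1.11. With KO2 held out, 86 were lower (0.695%) and 20 higher (0.162%), and KO2 lay at 1.07 and 0.775. Both of these fits used KO3, so they favour genes in which KO3 moved with the other KO library. The sets of genes therefore differ from fit to fit, and the positions are not measured on the same genes. With KO3 held out, KO3 lay at a median of 0.31 for the 548 lower genes and at -0.234 for the 366 higher genes. KO3 was beyond the WT range on the KO side for 414 of the 548 lower genes, within it for 86 and on the opposite side for 48. Of the 366 higher genes, KO3 was beyond the WT range on the KO side for 40, within it for 131 and below all WT libraries for 195. KO3 therefore shared a part of the decreases of KO1 and KO2 and few of the increases, the stefin A genes, *Fcgr2b*, *Sva*, *Camk2b*, *Chga*, *Etv4* and *Grap* among them. Of the 183 genes called with all libraries, 171 were also called without KO3.

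**Figure D3:**
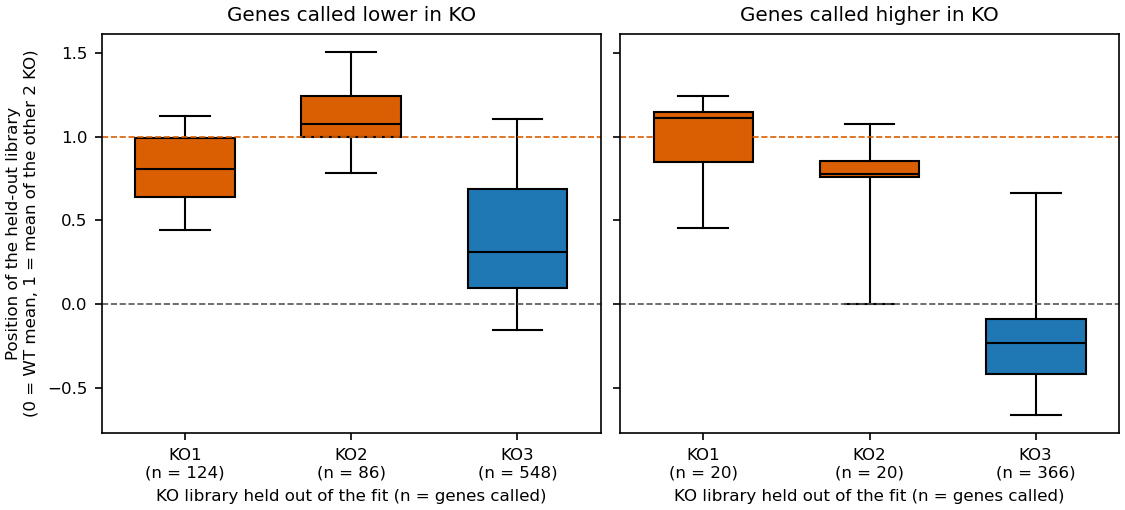
The boxes show where a KO library that was left out of the fit lay for genes called with the other 2 KO libraries, with genes called lower on the left and higher on the right, on a scale with 0 at the WT mean and 1 at the mean of the other KO libraries. Boxes span the middle 50% of genes, the line is the median and whiskers run from the 5th to the 95th percentile. KO1 and KO2 lie near 1, whereas KO3 has medians of 0.31 and -0.234, each over its own set of called genes.

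Some genes were higher in KO1 and KO2 alone. *Cd83*, a surface marker of activated cells, was at 5.29, 13.7 and 1.09 FPKM in WT1 to WT3 and at 63.3, 74.8 and 0.68 in KO1 to KO3. *Nr4a3*, an orphan nuclear receptor induced by signalling, was at 12.3, 15.9 and 1.22 FPKM against 78.4, 113 and 1.69. *Relb*, a subunit of NF-kB, was at 9.81, 17.1 and 6.30 FPKM against 43.5, 65.8 and 5.02. These genes, chosen after their values were seen, were highest in KO2 and KO1, and WT2 exceeded WT1 and WT3. The order of the WT libraries recurred: of the 366 genes called higher without KO3, WT2 was the highest WT library for 318 and WT3 the lowest for 325. Among all 12372 tested genes WT2 was the highest for 3888 and WT3 the lowest for 4616. A list of the NF-kB pathway was drawn up after the values were seen. KO1 and KO2 exceeded all WT libraries for 25 of its 30 tested genes. KO3 was below all WT libraries for 22 of these 25. Over all 12372 tested genes the numbers were 2667 and, of these, 1026. The summed level of the NF-kB list was 1440, 1600 and 1180 FPKM in WT1 to WT3, 2760 in both KO1 and KO2, and 1040 in KO3. None of the 30 was called with KO3 in the fit.

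The integrated stress response, which reduces translation and raises ATF4 and its targets, showed the same split. No member of 33 tested genes of the unfolded protein and integrated stress responses was called with KO3, and 7 were called higher without it, *Chac1*, *Ddit3*, *Trib3*, *Sesn2*, *Ddit4*, *Herpud1* and *Slc3a2*, against 2.96% of all tested genes. *Ddit3*, which encodes the factor CHOP, was at 40.3, 41.8 and 28.3 FPKM in WT and at 155, 171 and 14.3 in KO libraries (log2 fold change 1.0 with KO3, 2.13 without, limma adjusted p = 0.483 and 0.000962). *Chac1*, a glutathione-degrading enzyme, was at 0.44, 1.93 and 0.06 FPKM against 13.4, 21.5 and 0.13. *Atf4* itself was at 310, 315 and 299 FPKM against 507, 457 and 194. KO3 was the lowest of all libraries for *Ddit3* and *Atf4*. Of 23 tested heat shock genes none was called with KO3. Without it *Hspa1a*, *Hspa1b*, *Hspb1* and *Dnajb1* were called lower, against 4.43% of all tested genes, with a list median of -0.07. For 6 of the 23, KO1 and KO2 lay above all WT libraries, and for 10 below them. The shares over all tested genes were 21.6% and 50.0%. The inducible *Hspa1a* was at 221, 203 and 196 FPKM in WT libraries and at 10.7, 1.88 and 117 in KO libraries, and *Hspa1b*, its near copy, at 223, 208 and 216 against 13.2, 2.62 and 141.

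Genes of cell death and growth arrest went both ways. *Bcl2l11*, which encodes the death-promoting BCL2 protein BIM, was at 14.0, 22.2 and 9.06 FPKM in WT and at 47.8, 76.8 and 12.1 in KO libraries. KO1 and KO2 were above all WT libraries, while KO3 lay within the WT range. The log2 fold change was 1.27 ± 0.659 (limma adjusted p = 0.272), and it was 2.02 (adjusted p = 0.0056) without KO3. The other death-promoting members *Pmaip1*, at 5.23, 6.12 and 3.33 FPKM against 22.2, 30.7 and 1.91, and *Bbc3*, at 25.2, 26.4 and 16.6 against 63.5, 67.4 and 10.7, followed the pattern of *Ddit3*. No BCL2 family gene of 15 tested was called with KO3. Without it 4 were higher and *Bid* was lower, against 2.96% and 4.43% of all tested genes. Both *Pmaip1* and *Bbc3* are also p53 targets, as is *Cdkn1a*, the p21 inhibitor of cyclin-dependent kinases, at 64.7, 69.8 and 40.9 FPKM against 176, 171 and 30.3. Of 29 tested p53 targets, *Btg2* and *Gdf15* were called lower with all libraries, and 7 were higher and 4 lower without KO3, against 2.96% and 4.43% of all tested genes. KO1 and KO2 lay above all WT libraries for 11 of the 29 and below them for 17. The shares over all tested genes were 21.6% and 50.0%. The p53 list's median without KO3 was -0.31. *Gdf15*, a secreted stress factor, was at 9.36 to 10.6 FPKM in WT and 2.17 to 3.20 in KO libraries (-1.59 ± 0.147, adjusted p = 0.00449).

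**Figure D4:**
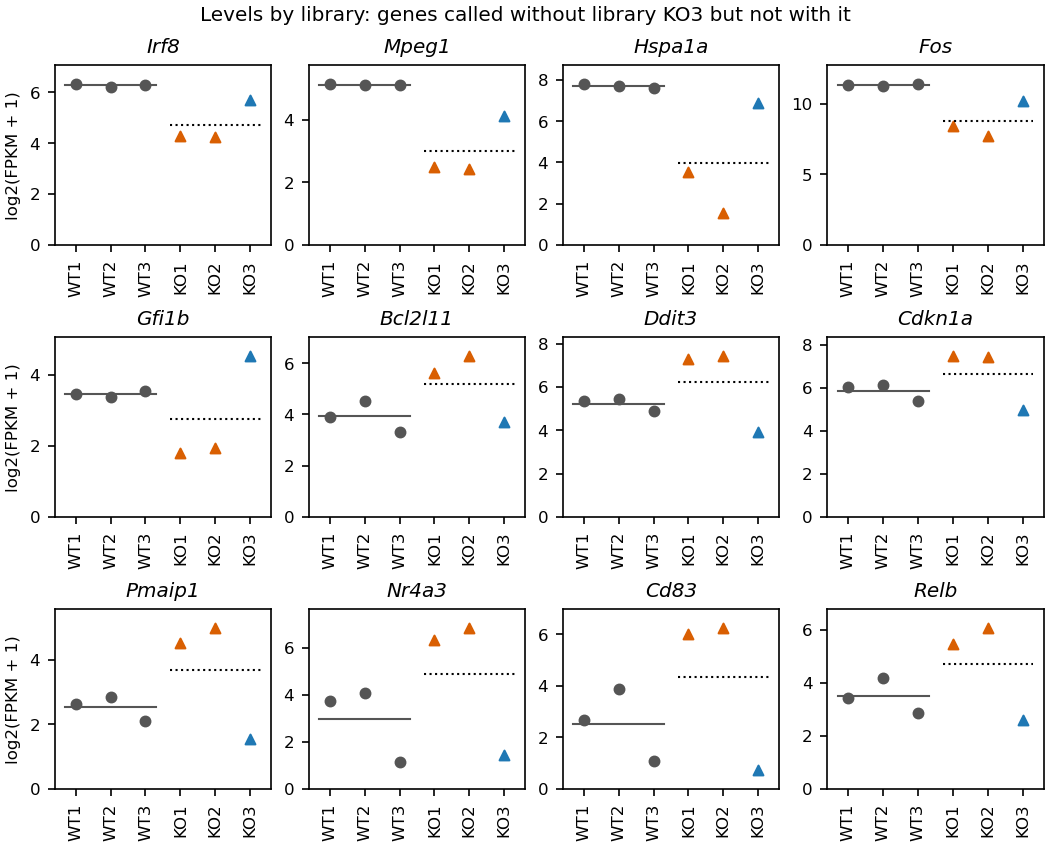
Each panel shows log2(FPKM + 1) of a gene in the 6 MPP libraries, with symbols and lines as in the plot of genes by library above it. All 12 genes were called by limma without KO3 and not with it: KO1 and KO2 lie to one side of the WT libraries, and KO3 (blue) lies nearer to the WT libraries or beyond them, as for *Ddit3* at 14.3 FPKM against 28.3 to 41.8.

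Dendritic cell genes, which the study was about, gave no call with all libraries. *Irf8* (chromosome 8 of GRCm38, 120736358 to 120756694), the factor that dendritic and monocytic fates require, was at 79.4, 73.6 and 77.2 FPKM in WT and at 18.4, 17.8 and 50.4 in KO libraries. All KO libraries were below all WT libraries, and KO3 fell least. The log2 fold change was -1.55 ± 0.377 with a limma adjusted p of 0.0774, and without KO3 it was -2.02 with 9.0e-05. Of 22 tested dendritic cell genes the median log2 fold change was -0.05. Without KO3 *Irf8* was called lower and *Relb*, *Irf4*, *Zbtb46*, *Id2* and *Nfil3* were called higher, against 4.43% and 2.96% of all tested genes. *Irf4*, which type 2 dendritic cells use, was at 2.43, 2.64 and 0.94 FPKM against 9.71, 12.9 and 0.80, and *Id2*, an inhibitor of E proteins, at 8.89, 10.6 and 9.58 against 26.3, 19.6 and 9.78. *Tcf4*, the factor of plasmacytoid dendritic cells, was at 18.3 to 19.4 FPKM in WT and 17.4 to 20.7 in KO libraries. *Spi1*, which encodes PU.1, was at 137, 139 and 140 FPKM in WT and at 148, 137 and 104 in KO libraries (-0.11 ± 0.135, adjusted p = 0.602), and KO3 was the lowest library.

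The elongation kinase *Cdk9* was at 42.2, 43.8 and 48.8 FPKM in WT and at 47.7, 49.3 and 46.3 in KO libraries (0.09 ± 0.0909, limma adjusted p = 0.539). None of 34 tested genes of the P-TEFb kinase complex and of elongation was called with KO3. Without it *Ccnt1*, *Aff4*, *Aff1* and *Ell2* were called higher, against 2.96% of all tested genes. *Ccnt1*, the cyclin partner of CDK9, was at 18.5, 22.2 and 11.04 FPKM in WT and at 38.7, 42.9 and 12.5 in KO libraries. Of 32 tested genes of the TIF1 proteins and of TGF-beta signalling none was called with KO3. Without it *Acvr1b* and *Id1* were lower and 6 genes higher, against 4.43% and 2.96% of all tested genes. *Skil*, a repressor of SMAD proteins and itself a target of the pathway, was at 10.4, 16.5 and 3.66 FPKM against 56.4, 68.0 and 3.11. *Id1*, a target of BMP signals, was at 13.1, 11.97 and 10.6 FPKM in WT and at 7.36, 2.87 and 4.13 in KO libraries, which did not overlap (-1.22 ± 0.279, adjusted p = 0.0658).

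Cell cycle genes divided the KO libraries without a call. The median difference of 32 genes of the G2 and M phases from the WT mean was -0.38 in KO1 and -0.47 in KO2 but 0.63 in KO3. For 27 of the 32, KO1 and KO2 lay below all WT libraries and KO3 above them, beside 1611 of all 12372 tested genes. *Plk1*, a mitotic kinase, was at 33.1, 30.6 and 35.4 FPKM in WT and at 14.8, 12.1 and 60.3 in KO libraries. For the 42 genes of S phase the medians were -0.08, -0.16 and 0.22. Without KO3 *Plk1* and *Hmmr* were called lower and *Orc1*, of the origin recognition complex, higher. In that fit 4.43% of all tested genes were lower and 2.96% higher.

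By same-numbered pairs, the median difference of the late erythroid list was -1.41, -1.36 and -1.25 in pairs 1 to 3, that of the monocyte list -1.17, -1.35 and -1.23 and that of the interferon list -0.87, -0.74 and -0.68, beside -0.17, -0.16 and -0.03 for all tested genes. The neutrophil list gave -0.67, -1.73 and -1.10, with KO2 the lowest KO library. The NF-kB list gave 1.37, 1.18 and -0.23, and the G2 and M phase list -0.39, -0.39 and 0.55, so that pair 3 ran against pairs 1 and 2 in both.

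The broad housekeeping groups held no call. Ribosomal protein genes (82 tested) had a median log2 fold change of 0.11, oxidative phosphorylation genes (81) one of 0.13 and proteasome subunits (38) one of 0.14, beside -0.11 for all tested genes, and none of them was called with or without KO3. Glycolysis (23 tested), cholesterol synthesis (32), toll-like receptors (16), cyclin-dependent kinase regulators (13) and the MYC network (12) held no call with all libraries, and all but the toll-like receptors held 1 to 3 without KO3. Of 50 lysosomal genes 1 was called lower, near the 1.32% of all tested genes, and 3 were without KO3. The gene called with all libraries was *Ctsh*, cathepsin H, at 11.5, 12.3 and 12.8 FPKM against 4.84, 4.53 and 3.78 (-1.30 ± 0.128, limma adjusted p = 0.00617). Of 13 genes of MHC class II presentation only *Ifi30*, a lysosomal thiol reductase, was called lower, and of 17 integrins *Itga2b* and *Itgb5* were. Of 31 cytokine receptors 2 were called lower, *Csf1r* among them, and 7 were without KO3. Of 30 lineage factors none was called, and without KO3 *Irf8* and *Id1* were lower and *Irf4*, *Nr4a1* and *Id2* higher. Beside the counts of these lists, 1.32% of all tested genes were called lower with all libraries. Without KO3 4.43% were called lower and 2.96% higher.

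**Figure D5:**
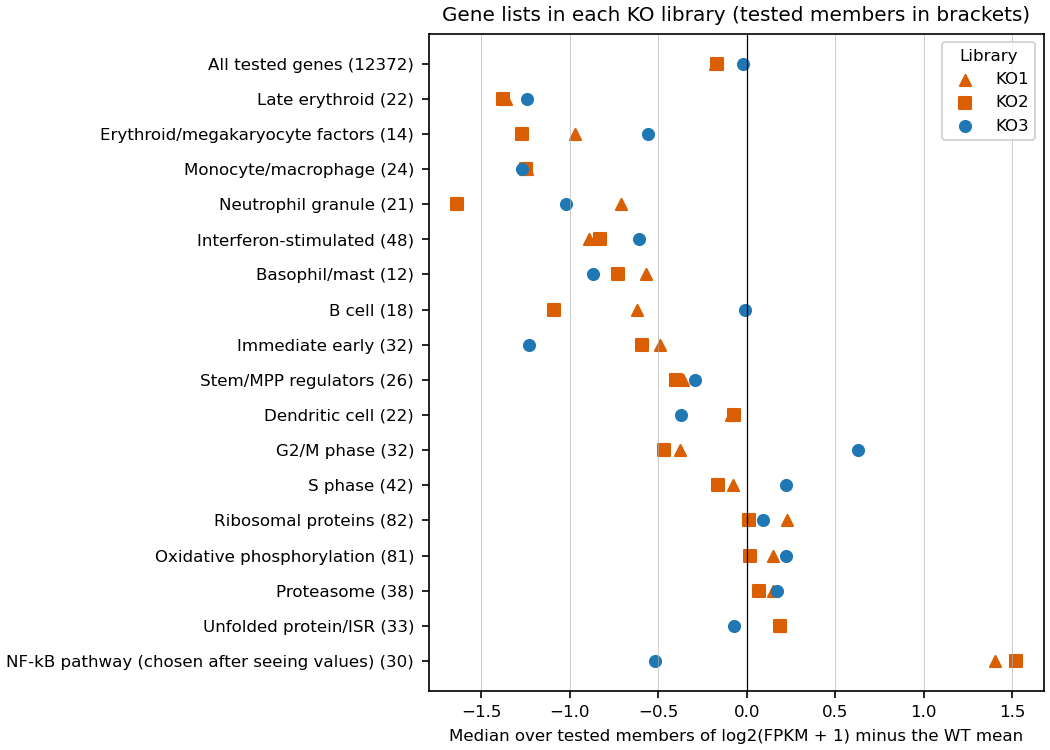
The plot gives, for each gene list and each KO library, the median over tested members of log2(FPKM + 1) minus the WT mean, as triangles for KO1, squares for KO2 and circles for KO3. The late erythroid (-1.24 to -1.38) and monocyte (-1.24 to -1.27) lists are alike in the 3 libraries, whereas G2 and M phase genes (-0.38, -0.47 and 0.63) and the NF-kB list (1.40, 1.52 and -0.52), which was drawn up after the values were seen, divide KO3 from KO1 and KO2.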

How the data were processed

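RNA-seq of 3 WT and 3 KO MPP libraries was used. Reads were single-end, of 50 bases. The authors removed poor reads with SOAPnuke, mapped the rest with Bowtie2 2.2.5 and used RSEM 1.2.12 for expression; HISAT2 2.0.4 and mm10 are named as well. The deposited table holds FPKM by gene for each library, with 2 decimals. Read counts were not used here, so the authors' count test was not repeated.

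Genes whose mean reached 0.5 FPKM were fitted with limma 3.58.1 (lmFit, eBayes with trend, R 4.3.3) on log2(FPKM + 1) and adjusted over all tested genes. The procedure was checked on simulated data whose spread was taken from the WT libraries. That check does not cover a KO library that stands apart. The depth was estimated from the steps between low FPKM values of genes with a single transcript; whole read numbers were not recovered. Promoter sequences and gene positions are RefSeq's for GRCm38.p6, and transcripts are GENCODE vM21; 12353 tested genes had a RefSeq entry. Summaries used pandas 2.3.3.

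The gene lists, the tests and the genes named were chosen with earlier results of these data known. Named were *Trim33*, the sort markers, the 15 highest and 15 lowest log2 fold changes among called genes, *Irf8*, *Spi1*, *Cdk9*, *Bcl2l11* and the leading members of each list (up to 3 called each way, otherwise up to 2); other genes were named after their values were seen, among them *Trim24*, *Trim28*, *Gata2*, *Gfi1b*, *Cebpa*, *Dntt*, *Il7r*, *Elane*, *Prtn3*, *Irf7*, *Isg15*, *Fos*, *Mpeg1*, *Hlf*, *Tcf4* and the activation, stress, cell death and sex-linked genes. A few items are not reported here. Alternatives were another pseudocount, filter or scaling, limma without trend or with array weights, the library number as a block, other thresholds, and each library left out.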

Additional observations from a re-analysis of the deposited data

How the results depend on the processing

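With 3 libraries a group, and with 1 KO library apart, the counts of called genes depend on the settings. The 163 lower genes became 245 with a pseudocount of 0.1, 245 as TPM, 65 with a mean of at least 5 FPKM (8554 genes tested), 89 with quantile normalization, 435 with array weights, 2 at an adjusted p of 0.001 and 436 with no minimum fold change. The 20 higher genes became 9 with a mean of at least 5 FPKM, 188 with array weights, 1 at an adjusted p of 0.001 and 39 with no minimum fold change. Leaving out 1 library gave 51 to 548 lower and 12 to 366 higher genes, the most without KO3, and median ratio scaling without KO3, added after the data were seen, gave 326 and 527. The causes were not tested. Of 59 named genes called by limma, all kept their direction in every alternative that tested them. These genes were called in the same libraries, with values that did not overlap between genotypes. A kept direction was thus nearly fixed in advance and says nothing about the stability of directions. With a mean of at least 5 FPKM 32 stayed called, 2 did not and the rest were not tested. Without 1 of the WT libraries 33 to 34 stayed called, without KO2 45, without KO1 53 and without KO3 58.

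The log2 fold change of *Trim33* turned positive without KO3 (0.12), in the block without replicate 3 (0.05) and in median ratio scaling without KO3 (0.28), and leaving out 1 library in turn gave -0.45 to 0.12. Among genes that were not called, these changed sign: *Atf4* without KO1 (-0.05, the range over single libraries left out being -0.05 to 0.64), *Nr4a1* without KO1 (-0.13) and without KO2 (-0.19, range -0.19 to 1.23), *Flt3* (0.00) and *Spi1* (0.01) with median ratio scaling, *Spi1* without KO3 (0.04, range -0.21 to 0.04), in the block without replicate 3 (0.05) and in median ratio scaling without KO3 (0.22), *Gata2* in that last setting (0.03) and *Trim28* without KO3 (-0.01, range -0.01 to 0.08).

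The replicate block uses the labelled numbers as pairs. Deviations of same-numbered libraries from their group means correlated at 0.04, 0.48 and 0.47 (across genes) in pairs 1, 2 and 3, so that pair 1 is not above 0.1 and the numbers are not established as pairs; WT1 correlated best with KO2 (0.12). The block called 163 lower and 25 higher genes, and without replicate 3, with 2 pairs, 530 and 282. It changed no call of the 59 named genes.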
